A study of Homo sapiens with 2 samples.

Results

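The Siglecs are a family of cell-surface receptors of leukocytes that bind sialic acids, the sugars that cap glycan chains on the outside of cells. The 10 genes described here were CD33 and SIGLEC1, 5, 6, 7, 8, 9, 10, 11 and 15, out of 20163 protein-coding genes in the annotation. For each gene, all CpG dinucleotides within 2000 bp of the TSS and in the rest of the annotated gene were taken by position (GRCh37), without use of any measured value. They came to 2536 of the 28217009 nuclear CpG dinucleotides listed. Of these, 2374 had more than 5 reads in both cell lines and entered the comparisons.

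Whole-genome bisulfite sequencing reads unmethylated cytosines as thymine and methylated ones as cytosine. It had been carried out on genomic DNA of 2 established human acute myeloid leukemia (AML) lines, each cultured as its supplier specified. OCI-AML3 is DNMT3A mutant, with R882C on 1 allele, and AML5, named OCI-AML5 in its sample record, is DNMT3A wild type. DNMT3A is a DNA methyltransferase that sets new methylation. Each line gave 1 library (no replicates), and the lines differ in more than DNMT3A, so an effect of the allele and other differences between the lines cannot be told apart. Neither line was treated, and the tables hold methylation calls and no expression.

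OCI-AML3 was covered by 902802339 calls and AML5 by 894828667, and the median nuclear CpG had 27 and 30. Nuclear CpG dinucleotides read in both lines averaged 67.6% methylation in OCI-AML3 against 75.4% in AML5, or -7.77 percentage points. The difference was -7.85 on chromosome 19, which holds 8 of the Siglec genes, -4.73 on chromosome 20 (SIGLEC1) and -8.77 on chromosome 18 (SIGLEC15). Each value below is to be read against this lower level of OCI-AML3.

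Most Siglecs carry an inhibitory motif (ITIM) in the cytoplasmic tail, which recruits the phosphatases SHP-1 and SHP-2 (PTPN6 and PTPN11) and dampens cell activation. SIGLEC15, SIGLEC14 and SIGLEC16 instead couple to the activating adaptor DAP12 (TYROBP), and SIGLEC1 acts mainly in adhesion. CD33 is a marker of the myeloid lineage and is bound by antibody drugs used in AML. The CD33-related genes arose by duplication and most of them lie together on chromosome 19. Methylation of CpG dinucleotides close to a TSS is commonly found at genes that are not in use, whereas the body of a gene is usually methylated whether or not it is transcribed.

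Across the family, promoters were less methylated in OCI-AML3 at most genes. The mean promoter level, taken over CpG dinucleotides from 2000 bp upstream to 2000 bp downstream of the TSS, was lower in OCI-AML3 at 9 of the 10 genes, all but CD33, a share near that of all 19667 promoters with at least 10 CpG dinucleotides (84.7%). Which gene was the exception depended on the window. Within 500 bp of the TSS CD33 was at -12.2 percentage points (OCI-AML3 minus AML5), and SIGLEC9 (5.82) and SIGLEC10 (12.0) were the higher ones. The CD33 value there lay largely in 2 of its 17 CpG dinucleotides. In the 2000-bp window the mean was lower by more than 20 percentage points at SIGLEC11, SIGLEC15, SIGLEC1, SIGLEC6 and SIGLEC7. That is 5 of 10, against 8.61% of all promoters. The median AML5 level of all promoters was 37.1%, and every member but CD33 lay above it. Promoters with low levels in AML5 had little or no room to be lower by that much. After the median difference of all promoters was subtracted, the count of members past 20 percentage points was 3, with SIGLEC6 at -17.6 and SIGLEC7 at -17.1. The share of all promoters was not recomputed after that subtraction, so 8.61% does not apply to this count. None of the 10 was higher by more than 20 percentage points, which 1.79% of all promoters were. The median difference was -20.2 percentage points over the 10 promoters and -4.68 over all promoters. The members were poor in CpG dinucleotides, with 10.7 to 21.7 per kb of promoter (median 18.2) against a median of 31.5 over all promoters. No replicate spread exists for these window means, so they carry no test.

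In the 2000-bp window the widest promoter difference was that of SIGLEC11, where the 65 CpG dinucleotides averaged 47.4% in OCI-AML3 against 84% in AML5. SIGLEC15 followed with 56.8% and 90.4% over 44, and SIGLEC1 with 38.5% and 67.6% over 67. SIGLEC6 had 38.9% and 61.1%, and SIGLEC7 had 55.9% and 77.7%. Just short of 20 percentage points lay SIGLEC8 with 67.2% and 85.9% and SIGLEC5 with 56.4% and 74.1%. The levels of SIGLEC10 (55.4% and 57.8%) and SIGLEC9 (72.8% and 73.5%) were close in both lines. CD33 had the lowest promoter level of the family in each line, 36.5% in OCI-AML3 and 32.3% in AML5. The order of SIGLEC11 and SIGLEC15 depended on the window. Upstream of the TSS alone SIGLEC15 was at -31.7 percentage points and SIGLEC11 at -28.0. Within 500 bp SIGLEC11 was at -55.6 and SIGLEC15 at -40.4.

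**Figure D1:**
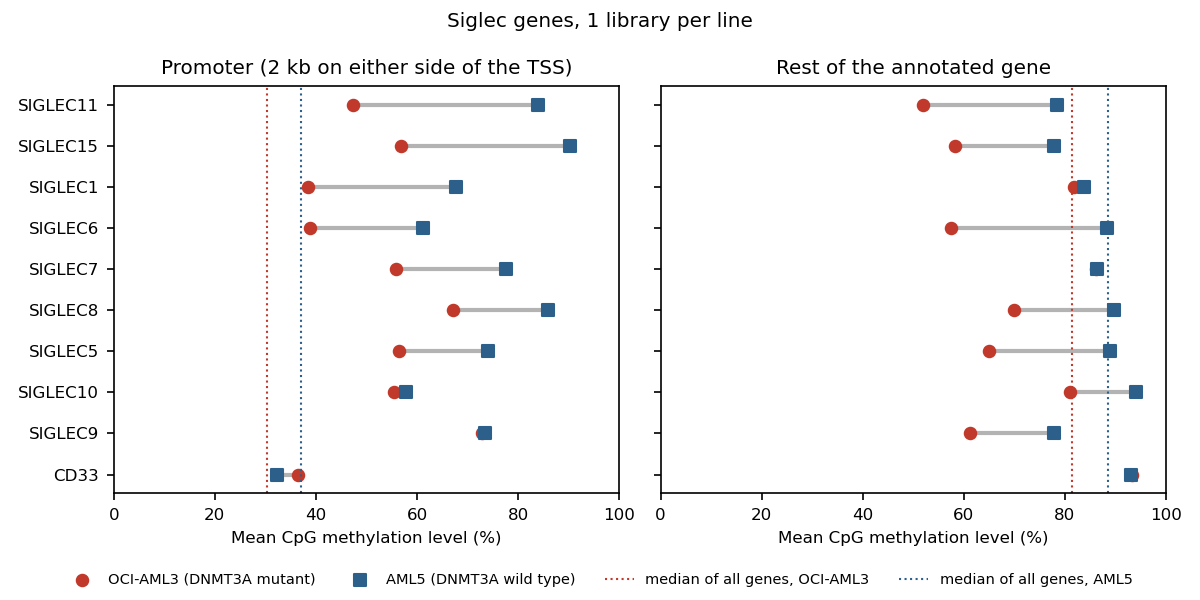
Mean CpG methylation level (%, horizontal axis) of the promoter (left) and the rest of the gene (right) of each Siglec gene, with a circle for OCI-AML3 and a square for AML5 (1 library each, no error bars) and dotted lines at the medians of all protein-coding genes. The circles lie well to the left of the squares at SIGLEC11 and SIGLEC15 in both panels, and the symbols overlap or nearly overlap at SIGLEC9 and SIGLEC10 promoters and at the bodies of CD33, SIGLEC1 and SIGLEC7.

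The bodies gave another order. In the gene outside the promoter window, SIGLEC6 differed most, where 102 CpG dinucleotides averaged 57.4% in OCI-AML3 against 88.3% in AML5. SIGLEC11 had 52.0% and 78.5%, and SIGLEC5 had 65.1% and 88.9%. These 3 of 10 bodies were lower by more than 20 percentage points, against 7.58% of all 18292 gene bodies with at least 10 CpG dinucleotides. SIGLEC8 (69.8% and 89.8%) and SIGLEC15 (58.2% and 77.8%) came just short of that threshold. The body was lower at all at 9 of the 10 genes (92.9% of all bodies were), and none was higher by more than 20 points (0.541%). The body of CD33 was at 93.3% and 93.0%, that of SIGLEC7 at 86.1% and 86.4%, and that of SIGLEC1 at 81.9% and 83.7%. SIGLEC1 and SIGLEC7 thus combined a promoter difference of over 20 percentage points with near-equal bodies. The promoter window takes in the first 2000 bp of the gene, which the body leaves out. Over the whole annotated gene SIGLEC7 was at -13.4 percentage points and SIGLEC1 at -3.73. Upstream of the TSS alone they were at -1.01 and -31.4. The median body difference was -18.1 percentage points over the family and -4.93 over all genes.

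Single CpG dinucleotides were compared between the libraries with Fisher's exact test on methylated and unmethylated calls, adjusted by Benjamini–Hochberg over 24454751 nuclear CpG dinucleotides. At adjusted P under 0.05, 615 of the 2374 Siglec CpG dinucleotides were lower in OCI-AML3, or 25.9%, against 14.7% of all nuclear CpG dinucleotides. In the other direction 60 were higher, or 2.53%, against 3.86%. The share of lower CpG dinucleotides ran from 3.87% in CD33 and 10.7% in SIGLEC1 to 41.3% in SIGLEC15, 41.9% in SIGLEC11 and 42.1% in SIGLEC6. No CpG of SIGLEC9 or SIGLEC11 was called higher in OCI-AML3. CD33 was the only member with more CpG dinucleotides called higher (8) than lower (6). The test covers read sampling between 2 libraries and not the variation between cultures, and each read was counted as independent. A C-to-T difference in the DNA sequence of a line would also be read as an unmethylated cytosine and cannot be told apart in these tables.

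The shift lay mainly between the fully methylated and the lower classes. Of the Siglec CpG dinucleotides 52.9% had a level above 80% in OCI-AML3, against 75.02% in AML5. Levels from 20% to 80% made up 28.2% and 17.4%, and levels under 20% made up 18.96% and 7.62%. Over all nuclear CpG dinucleotides the shares above 80% were 57.9% and 68.3%, and those under 20% were 19.1% and 12.7%. The median level of SIGLEC6 was 50.0% in OCI-AML3 and 93.3% in AML5, and that of SIGLEC11 was 50.8% and 92.6%. CD33 had medians of 95.5% and 94.1%.

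CD33, the sialic acid receptor of myeloid cells, was nearly unmethylated just past its TSS in both lines. Over the 13 CpG dinucleotides from the TSS to +500 bp OCI-AML3 averaged 2.67% and AML5 4.81%. The CpG nearest the TSS, at +59, had 0 methylated calls of 13 in OCI-AML3 and 0 of 17 in AML5. A single site stood out, at +387, with 6 methylated of 20 calls in OCI-AML3 and 30 of 48 in AML5 (Fisher's exact test, adjusted P = 0.088), and the other 12 had no methylated call in AML5. Differences lay on either side of this stretch and went in opposite directions. The sequence upstream is shown because it holds the CpG pair that was unmethylated in OCI-AML3 alone (chr19:51727975-51728274, GRCh37, plus strand, CpG dinucleotides in capitals).
CD33 upstream: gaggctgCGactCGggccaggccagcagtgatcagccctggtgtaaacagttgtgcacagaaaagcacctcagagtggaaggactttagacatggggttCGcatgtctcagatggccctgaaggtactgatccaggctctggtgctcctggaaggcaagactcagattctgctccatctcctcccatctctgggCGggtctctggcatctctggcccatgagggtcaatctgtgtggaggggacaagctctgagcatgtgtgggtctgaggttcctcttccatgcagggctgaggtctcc

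The first CpG of this sequence, at -338, had 0 methylated of 25 calls in OCI-AML3 and 35 of 37 in AML5 (Fisher's exact test, adjusted P = 2.2e-13). The second, at -333, had 0 of 26 and 34 of 38 (Fisher's exact test, adjusted P = 3.3e-12). The next, at -246, was methylated in every call in both lines, 16 of 16 and 39 of 39. The last, at -151, had no methylated call in either line but too few reads in OCI-AML3, 4, to be tested. Of the 17 CpG dinucleotides of CD33 tested within 500 bp of the TSS, this pair, 5 bp apart, was the only one called in either direction.

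Downstream, CD33 was more methylated in OCI-AML3. From +500 to +1000 bp the mean was 20.5% against 3.16% over 10 CpG dinucleotides, and from +1000 to +1500 bp it was 40.6% against 1.64% over 4. Of these 14 CpG dinucleotides 7 were called higher in OCI-AML3. Of these, 3 neighbours in exon 3, from +904 to +938, formed a run with 32.1% methylation in OCI-AML3 and none in AML5. CD33 had no run of 3 or more neighbouring CpG dinucleotides called lower, whereas each of the other 9 members did (82.6% of all protein-coding genes had one). A run in the higher direction was found in CD33, SIGLEC10 and SIGLEC15 (32.9% of all genes had one).

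The inhibitory receptors SIGLEC7 and SIGLEC9 lie upstream of CD33 on the same strand and differed from each other. SIGLEC7, known from natural killer cells, was highly methylated in both lines from -2000 to -500 bp, with 500-bp means of 91.6% to 95.1% in OCI-AML3 and 85.6% to 93.0% in AML5. The lines were apart from the next window on, from -500 bp to the TSS, with 29.95% in OCI-AML3 and 54.9% in AML5. The mean was 15.8% and 57.5% from the TSS to +500 bp, and 24.9% and 76.8% from +500 to +1000 bp. From +1500 to +2000 bp the lines met again at 83.0% and 84.2%. The 200 bases before the TSS are shown because the drop from a methylated to an unmethylated state in OCI-AML3 falls within them (chr19:51645356-51645555, GRCh37, plus strand, CpG dinucleotides in capitals).
SIGLEC7 upstream: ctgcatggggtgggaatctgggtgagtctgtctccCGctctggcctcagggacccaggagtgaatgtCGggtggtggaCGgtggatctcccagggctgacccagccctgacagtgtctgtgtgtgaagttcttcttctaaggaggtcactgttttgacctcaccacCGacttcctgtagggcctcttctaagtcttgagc

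In OCI-AML3 the 4 CpG dinucleotides of this sequence were methylated in 15 of 23, 0 of 21, 1 of 22 and 0 of 19 calls, reading toward the TSS. In AML5 they were methylated in 19 of 22, 7 of 19, 8 of 18 and 2 of 30 calls. The middle pair passed the test (Fisher's exact test, adjusted P = 0.0173 and 0.0321). The CpG closest to the TSS of SIGLEC7, at +1, had 0% of 20 calls in OCI-AML3 and 13.3% of 30 in AML5 and did not pass (Fisher's exact test, adjusted P = 0.441). Of the 21 CpG dinucleotides within 500 bp, 13 were called lower. The longest run covered 8 CpG dinucleotides of intron 1 from +560 to +953, at 17.3% and 77.7%. Without the 5 promoter CpG dinucleotides whose surrounding 100 bases recur on the chromosome, the promoter difference of SIGLEC7 was -19.8 in place of -21.8 percentage points and no longer passed 20.

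SIGLEC9, an inhibitory receptor of monocytes and neutrophils, was partly methylated at the TSS in both lines. Its nearest CpG, at -1, was at 33.3% in each line, over 24 and 30 calls, and no CpG within 500 bp was called in either direction. From -1500 to -1000 bp the gene had a stretch low in both lines, 14.0% in OCI-AML3 and 20.7% in AML5. Its promoter window also overlaps the annotated pseudogene SIGLEC18P. Its differences lay mainly far downstream. From +7464 to +7786 bp, inside the annotated gene but past the end of its canonical transcript, 16 neighbouring CpG dinucleotides were at 0.243% in OCI-AML3 and 59.0% in AML5 (chr19:51635627-51635949). It was the run of the family with the most CpG dinucleotides, and was covered by 1119 and 1214 calls. A further run of 6, from +10019 to +10420, was at 15.8% and 88.9%.

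On the far side of CD33 and on the opposite strand lie SIGLEC10, SIGLEC8, SIGLEC6 and SIGLEC5. SIGLEC10, an inhibitory receptor of B cells and macrophages, was one of the genes with low levels around the TSS in both lines. Within 500 bp its mean was 21.3% in OCI-AML3 and 9.30% in AML5. The 4 CpG dinucleotides called there were all higher in OCI-AML3, and 3 of them, from +258 to +293, had 39.7% against 0%. In its body the direction was the other one, 81.0% against 94.1%, with 24 CpG dinucleotides called lower and 0 higher.

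SIGLEC8, a receptor of eosinophils and mast cells, was methylated around the TSS in both lines, with 63.4% in OCI-AML3 and 85.5% in AML5 within 500 bp. Its nearest CpG, at -25, was at 83.3% of 18 calls and 81.8% of 11. At -100 a single CpG was at 5.26% in OCI-AML3 and 81.2% in AML5 (Fisher's exact test, adjusted P = 6.4e-05). The longest run of SIGLEC8 held 8 CpG dinucleotides of intron 3 from +1561 to +1856, with 18.8% and 82.2%.

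SIGLEC6, found on placental trophoblast and mast cells, had the lowest level at the TSS of all 10 genes in OCI-AML3 and was among the lowest in AML5, with SIGLEC10. Within 500 bp the mean over 23 CpG dinucleotides was 1.56% in OCI-AML3 and 9.54% in AML5, and all 23 in OCI-AML3 and 20 in AML5 were under 20%. Over all protein-coding genes with at least 10 CpG dinucleotides in this narrower window, 58% were under 20% in both lines, and SIGLEC6 was the only one of the 10 Siglec genes. The 200 bases before the TSS are shown as the example of a Siglec promoter that was nearly free of methylation in both lines (chr19:52035111-52035310, GRCh37, minus strand, CpG dinucleotides in capitals).
SIGLEC6 upstream: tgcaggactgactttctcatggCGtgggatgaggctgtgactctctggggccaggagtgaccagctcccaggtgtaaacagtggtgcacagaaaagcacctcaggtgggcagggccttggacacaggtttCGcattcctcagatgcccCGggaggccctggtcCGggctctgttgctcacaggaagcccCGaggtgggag

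Of its 5 CpG dinucleotides the first had 1 methylated of 23 calls in OCI-AML3 and 6 of 16 in AML5 (Fisher's exact test, adjusted P = 0.0655). The other four had at most 1 methylated call in either line, over 35 to 38 calls in OCI-AML3 and 35 to 36 in AML5. The lines parted beyond this unmethylated stretch. The mean was 46.5% in OCI-AML3 and 92.0% in AML5 from +500 to +1000 bp, and a run of 5 CpG dinucleotides in exon 2, from +507 to +604, was at 19.5% and 93.6%. SIGLEC6 had 7 runs called lower and none higher.

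SIGLEC5, an inhibitory receptor of neutrophils and monocytes, was low close to the TSS in OCI-AML3 and intermediate in AML5, with 14.0% and 36.8% within 500 bp. A single CpG within that distance was called, at +463 (44.4% and 100%, Fisher's exact test, adjusted P = 0.00234), and it lies in 100 bases that recur on the chromosome. Its main differences lay in the body, where 67 CpG dinucleotides were called lower and 3 higher. A run of 8 in the last annotated exon, from +18012 to +18845, was at 21.9% and 84.5%, and another of 8 from +2770 to +3167 was at 30.8% and 87.6%. SIGLEC5 shares near-identical sequence with SIGLEC14, and 31 of the 75 CpG dinucleotides of its promoter window lie in 100 bases that recur on chromosome 19. Of the 75, 23 were not tested for want of reads, so its promoter values are uncertain. Pooling all calls in place of averaging CpG dinucleotides gave a promoter difference of -5.47 against -17.7 percentage points.

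SIGLEC11, a receptor of macrophages and microglia that binds polysialic acid, lies on chromosome 19 apart from the cluster. Within 500 bp of its TSS the mean was 25.8% in OCI-AML3 and 81.4% in AML5, the widest difference of the family in this window, and 15 of 21 CpG dinucleotides were called lower. The nearest, at +1, was methylated in 0% of 15 calls and 70.6% of 17 (Fisher's exact test, adjusted P = 0.000328). In intron 8, 12 CpG dinucleotides from +5883 to +6438 were at 14.7% and 82.9%. SIGLEC11 shares near-identical sequence with SIGLEC16. In its promoter window 34 of 87 CpG dinucleotides lie in recurring 100 bases and 22 were not tested. Without the recurring ones its promoter difference was -31.3 percentage points, and that of SIGLEC15, at -33.5, was then wider.

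SIGLEC1, or sialoadhesin, is a macrophage receptor without an ITIM that binds sialylated particles. It was low on both sides of the TSS mainly in OCI-AML3. Within 500 bp the mean over 19 CpG dinucleotides was 18.01% in OCI-AML3 and 66.0% in AML5, and 11 were called lower. The nearest CpG, at +5, was at 0% of 22 calls and 7.50% of 40 (Fisher's exact test, adjusted P = 0.976). Past the TSS, 8 neighbours from +26 to +249 were at 1.39% in OCI-AML3 and 73.7% in AML5. A separate run of 6 from -1923 to -1492 was at 15.7% and 87.9%, with a stretch between -1000 and -500 bp at 84.4% and 82.8% in between. In the body of SIGLEC1, 25 CpG dinucleotides were called lower and 16 higher of 402, or 6.22% and 3.98%. Over all nuclear CpG dinucleotides the shares were 14.7% and 3.86%.

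SIGLEC15, a receptor of osteoclasts and macrophages that signals through DAP12, had the highest AML5 promoter level of the family. Within 500 bp the mean was 47.0% in OCI-AML3 and 87.3% in AML5, and 10 of 15 CpG dinucleotides were called lower. The 150 bases before the TSS are shown because 5 of their 6 CpG dinucleotides were called lower (chr18:43405490-43405639, GRCh37, plus strand, CpG dinucleotides in capitals). The promoter window overlaps the gene EPG5 on the other strand.
SIGLEC15 upstream: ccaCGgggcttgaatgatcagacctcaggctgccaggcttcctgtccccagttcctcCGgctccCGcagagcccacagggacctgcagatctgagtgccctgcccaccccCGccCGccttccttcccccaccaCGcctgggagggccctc

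The first CpG of this sequence was unmethylated in both lines, 1 of 50 calls in OCI-AML3 and 1 of 30 in AML5. The next pair was intermediate in OCI-AML3, with 22 of 46 and 23 of 44 calls methylated, and had 25 of 29 and 28 of 28 in AML5. The remaining ones had 0 of 22, 6 of 20 and 1 of 15 in OCI-AML3 and 19 of 21, 20 of 20 and 21 of 24 in AML5. The body of SIGLEC15 held differences in both directions, with 39.7% of its tested CpG dinucleotides called lower and 4.89% higher. Over all nuclear CpG dinucleotides the shares were 14.7% and 3.86%, so the higher share was near that of the genome. Its longest run, 15 CpG dinucleotides in exon 4 from +13259 to +13370, was at 55.7% and 96.6%. In intron 1 a run of 4 from +2037 to +2093 was at 73.1% in OCI-AML3 and 6.58% in AML5, and a run of 3 from +2278 to +2287 at 77.4% and 2.09%, the reverse of the gene as a whole.

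**Figure D2:**
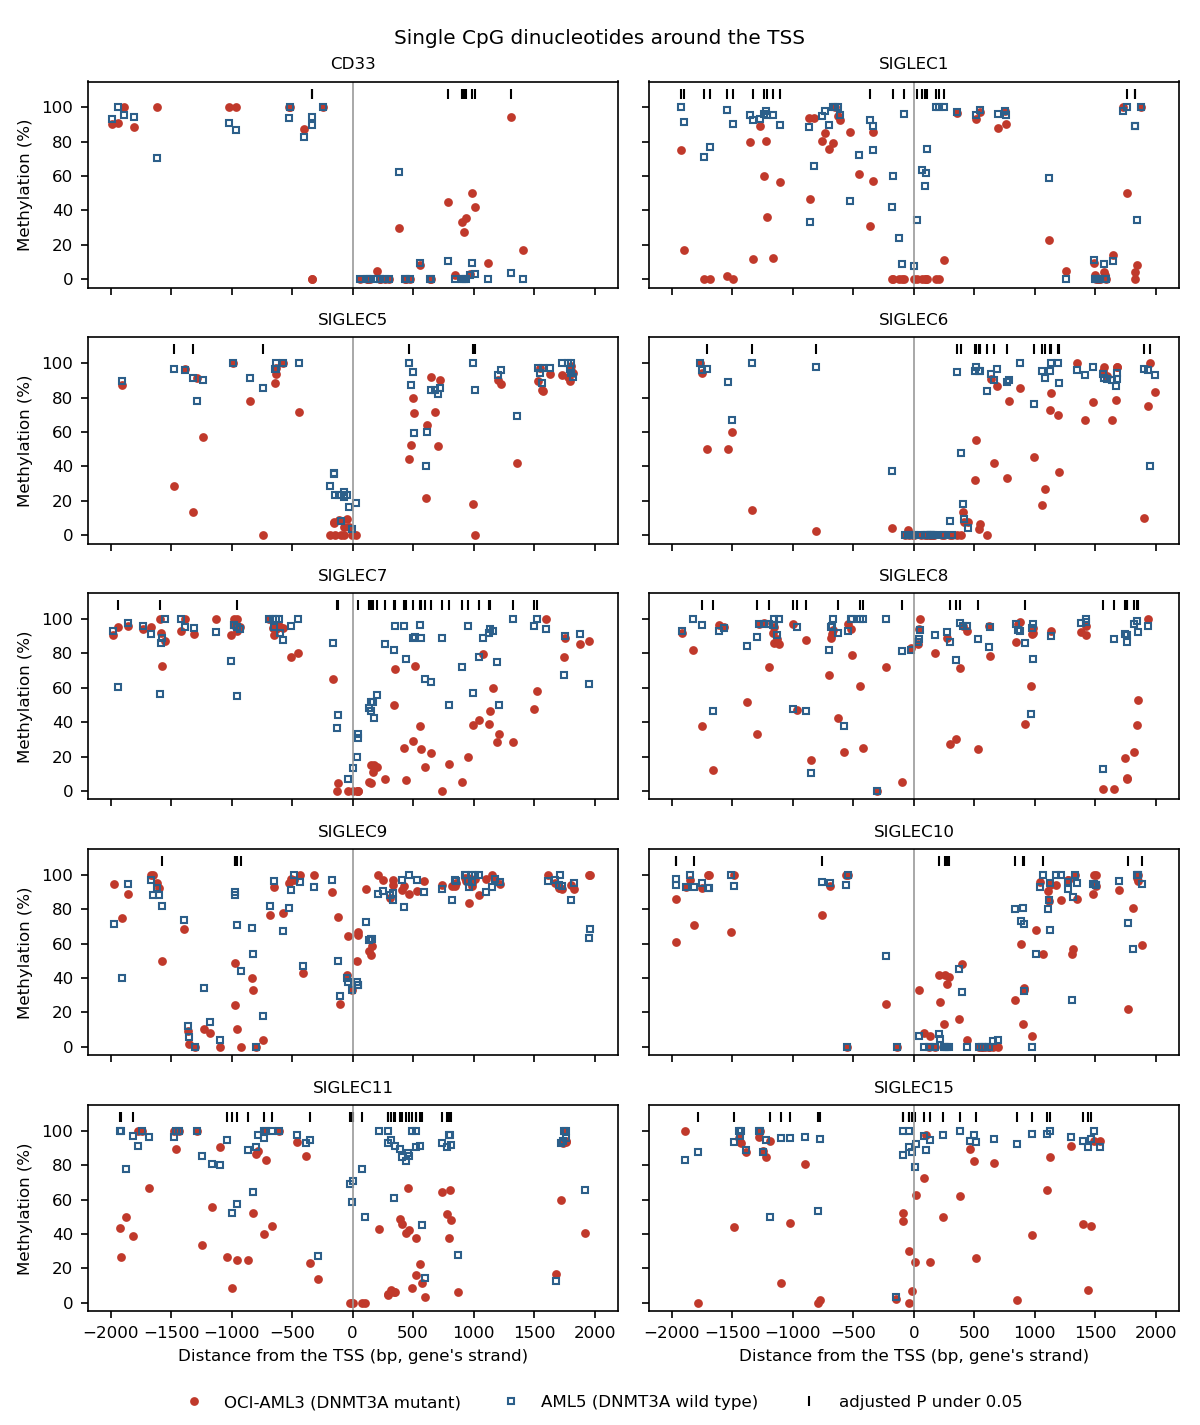
Methylation level (%, vertical axis) of each tested CpG dinucleotide against its distance from the TSS (bp, in the direction of the gene) for the 10 Siglec genes, with filled circles for OCI-AML3, open squares for AML5 and ticks at the top of each panel where Fisher's exact test gave an adjusted P under 0.05. SIGLEC6 is near 0% in both lines around the TSS, SIGLEC1, SIGLEC7 and SIGLEC11 are low there mainly in OCI-AML3, and CD33 is near 0% in both with higher values in OCI-AML3 beyond +785 bp.

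Around the TSS the family thus took several forms. Within 500 bp, 6 of 10 genes were lower in OCI-AML3 by more than 20 percentage points (9.51% of all promoters were), and none was higher by that much (3.27%). Of all promoters in this window 58% were under 20% in both lines and so could not be lower by that much. SIGLEC6 was the only member under 20% in both lines. SIGLEC10, with a mean of 9.30% in AML5, could not be lower by that much either. The 6 lower genes were SIGLEC11, SIGLEC1, SIGLEC15, SIGLEC7, SIGLEC5 and SIGLEC8. By the pooled share of calls SIGLEC5 was at 17.2% in OCI-AML3 and 28.8% in AML5. SIGLEC8 was at 69.9% and 88.8%, so neither passed 20 points by that measure. Means under 20% in OCI-AML3 and not in AML5 were found at CD33, SIGLEC1, SIGLEC5 and SIGLEC7 (6.86% of all promoters). The pooled share of SIGLEC1 in OCI-AML3 was 22.3%, above that level. In CD33 the pooled share of methylated calls was 12.1% (Wilson 95% interval 8.87% to 16.2%) in OCI-AML3 and 29.7% (25.9% to 33.7%) in AML5. The CD33 difference in this window lay largely in the pair at -338 and -333. That pair had no methylated call in OCI-AML3 and was at 94.6% and 89.5% in AML5. From the TSS to +500 bp the CD33 means were 2.67% in OCI-AML3 and 4.81% in AML5. In order of the AML5 level, SIGLEC10 (pooled share 6.61%, 4.72% to 9.18%) and SIGLEC6 (7.85%, 5.86% to 10.4%) could not be told apart within their intervals, nor could SIGLEC5 (28.8%, 24.7% to 33.3%) and CD33, nor SIGLEC7 (60.7%, 56.9% to 64.4%) and SIGLEC1 (61.4%, 56.9% to 65.7%). SIGLEC8 (88.8%, 85.4% to 91.5%) and SIGLEC15 (89.0%, 86.0% to 91.4%) were the highest and also overlapped. The interval of SIGLEC11 (82.3%, 78.7% to 85.4%) just reached that of SIGLEC8.

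Of the 10 genes, 7 lie in a cluster of 505 kb on chromosome 19 (chr19:51628163-52133654). Across its 6807 CpG dinucleotides OCI-AML3 averaged 62.5% and AML5 74.4%, and between genes the averages were 62.7% and 75.2%. In windows of 10 kb, 11 of 52 were lower in OCI-AML3 by more than 20 percentage points (8.86% of the windows of chromosome 19 were) and none was higher by that much. The median window difference was -12.6 in the cluster and -7.36 on the chromosome. The window that starts at the CD33 TSS had the highest difference of the cluster, 5.14, with 62.2% in OCI-AML3 and 57.0% in AML5. The lowest, -44.5, was 280 kb further, near SIGLEC6. Within 50 kb on either side of a gene, the difference was -21.2 at SIGLEC6 and -17.9 at SIGLEC8, -11.9 at CD33, and -4.06 at SIGLEC1. The body of SIGLEC6, with a difference of -30.88, thus lay in surroundings that were themselves lower, whereas the promoter of SIGLEC1 lay in surroundings close to equal.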

How the data were processed

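The authors sequenced paired-end bisulfite libraries of OCI-AML3 and AML5 (1 each), aligned them to hg19 and called methylation with Bismark, on Bowtie 0.12.8 per the submitters' processing notes. The authors deposited, for every CpG, the counts of reads calling it methylated and unmethylated, not normalized. Removal of duplicate reads is not given in the sources used here. Listed positions matched the G of a CpG in GRCh37 at 99.81% of sites. A level was the methylated share of calls, used where each line had more than 5 reads. The TSS was the most upstream base of a gene in GENCODE release 44 lifted to GRCh37. A window was counted as different beyond 20 percentage points, and a run as 3 or more neighbouring called CpG dinucleotides no more than 300 bp apart. Wilson 95% intervals of pooled calls cover read sampling only. Medians of 27 and 30 calls per CpG limit single sites. The exact test was also checked on simulated data.

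All 10 members were named, and for single sites the rule took the CpG nearest the TSS, called ones within 500 bp and the longest runs, not all of which are printed. 1 upstream sequence is not reported here. Further CpG dinucleotides in the printed sequences were chosen after their values were seen. Members and lists were chosen with earlier results of these data known. Alternatives covered read minimum, averaging, window, TSS, centring, adjustment and run rules. The analysis used samtools 1.23.1, Python 3.11.15, scipy 1.17.1, numpy 2.4.6, numba 0.67.0, pandas 2.3.3 and matplotlib 3.10.9.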

Additional observations from a re-analysis of the deposited data

How the results depend on the processing

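No paired analysis was possible because each line was represented by 1 library, and for the same reason no replicate could be left out. The count of promoters lower by more than 20 percentage points in OCI-AML3, 5 as reported, was 3 after the median difference of all protein-coding promoters was subtracted (SIGLEC1, SIGLEC11 and SIGLEC15), and 4 to 6 under the other alternatives. For the subtracted count no share of all promoters was computed. The count of gene bodies, 3 as reported, was 5 both with all calls pooled and over the whole annotated gene, and 2 to 4 otherwise. CpG dinucleotides called higher numbered 34 under Benjamini–Yekutieli adjustment in place of 60. Those called lower numbered 442 to 601 in place of 615, and members with a run called lower 8 or 9. Under Benjamini–Yekutieli adjustment, which gave the 442, 9.63% of all nuclear CpG dinucleotides were called lower and 2.35% higher. The sign of the promoter difference was kept in 81 of 90 recomputations and changed in CD33, SIGLEC9 and SIGLEC10. CD33 was at -10.4 upstream of the TSS alone, -12.2 within 500 bp and 4.16 in the reported window, and SIGLEC10 was at 12.0 within 500 bp. Upstream of the TSS alone SIGLEC7 was at -1.01, and within 500 bp SIGLEC6 was at -7.98. The sign of the body difference was kept in 57 of 60 and changed in CD33, SIGLEC1 and SIGLEC7. The 500-bp window and the removal of recurring sequence were chosen after seeing the data. The promoters of SIGLEC5 and SIGLEC11, with 23 and 22 untested CpG dinucleotides, are limited by depth.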

Other observations

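Among 6 other Siglec genes, the promoter of SIGLEC16, the activating partner of SIGLEC11, was at 28.2% in OCI-AML3 and 63.1% in AML5, and was the only one lower by more than 20 percentage points (8.61% of all promoters and 7.58% of all bodies were). The bodies of 3 were lower by that much, SIGLEC12 (49.1% and 87.7%), SIGLEC14 (58.7% and 92.6%) and CD22 (67.7% and 88.4%). SIGLEC14 and SIGLEC16 share near-identical sequence with members of the family described above, so their values are uncertain.

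Of 12 genes for Siglec signalling partners, 2 promoters were lower by more than 20 percentage points, against 8.61% of all promoters. They were SRC (27.4% and 57.9%) and TYROBP, the adaptor of SIGLEC15 (46.2% and 70.4%). Of 11 bodies with at least 10 CpG dinucleotides, 2 were lower by that much, against 7.58% of all bodies. They were SOCS3 (71.5% and 95.7%, over only 18 CpG dinucleotides) and PTPN6, which encodes SHP-1 (28.8% and 52.5%). The median promoter difference of the list was -3.08 percentage points, against -4.68 over all promoters.

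Of 32 genes for enzymes and transporters that make, transfer or remove sialic acid, 31 had at least 10 promoter CpG dinucleotides. Of these, 3 promoters were lower by more than 20 percentage points, a share close to the 8.61% of all promoters. They were those of the CMP-sialic acid transporter SLC35A1 (56.2% and 86.0%), the sialyltransferase ST6GALNAC5 (13.7% and 43.3%) and GNE, the first enzyme of sialic acid synthesis (66.5% and 90.1%). Of 32 bodies, 3 were lower by that much, a share close to the 7.58% of all bodies. They were those of ST6GALNAC3, ST8SIA1 and ST8SIA2, with differences of -23.9 to -20.6 points. The median promoter difference was -2.82.

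Of the 12 other protein-coding genes between the outermost Siglec genes of the cluster, SIGLEC12 included, no promoter passed 20 percentage points in either direction. Of all promoters 8.61% were lower and 1.79% higher by that much. The widest decrease was that of VSIG10L (32% and 43.9%) and the widest increase that of IGLON5 (54.2% and 41.3%). None of the genes in the 4 lists had a promoter or body higher by more than 20 points. Such increases were rare over all genes too, at 1.79% of promoters and 0.541% of bodies.

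In the RefSeq promoter table (GRCh38.p14, 250 bases before to 50 after the start), 9 of the 10 genes were matched and SIGLEC1 was not. The letters GAGGAAG, the core bound by PU.1, were found on either strand in 1 of the 9, CD33, and in 13.6% of 35116 promoters. The letters TGTGGT, the core bound by RUNX factors, were found in 0 of the 9 and in 13.1% of all. These are matches of letters and not measured sites.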
